A study of Mus musculus with 15 samples.

Results

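The miR-181 family was followed here as 5 entries of a small RNA sequencing table: the 4 guide strands mmu-miR-181a-5p, mmu-miR-181b-5p, mmu-miR-181c-5p and mmu-miR-181d-5p, and mmu-miR-181a-1-3p, the passenger arm of the Mir181a-1 hairpin. Guide is used here as a name for the 5p strand of each hairpin, whatever its level. The 5 were taken by name out of 1994 miRNA and piRNA entries, of which 1834 were miRNAs, and they were followed through all 15 libraries of the series. The cells were microglia, the macrophages of the brain itself, from 5xFAD mice, a transgenic line in which amyloid builds up, and from wild-type controls. Every mouse, WT included, was given the amyloid-binding dye Methoxy-X04 (Me-X04), and live cells positive for CD11b, CD45 and CX3CR1 were sorted. TG Me-X04+ were cells of transgenic (TG) mice that carried the dye, labelled 6 months of age (5 libraries). TG Me-X04- were cells of the same mice without the dye, also labelled 6 months (5 libraries, 1 of each kind from every TG mouse), and the 2 are called Me-X04+ and Me-X04- from here on. WT were dye-free cells of wild-type mice, labelled 2 months (5 libraries), so that genotype and labelled age cannot be told apart in any comparison with WT. The sort measured dye in a cell, and no label gives a pooling of animals.

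A miRNA hairpin is cut by Drosha and Dicer into a short duplex, of which the strand kept by an Argonaute protein is the guide and the other, usually degraded, is the passenger. A guide pairs with messenger RNAs mainly through its seed, the bases from position 2 to 8, and lowers their translation and stability. The miR-181 family is known in mouse lymphocytes, where miR-181a sets the sensitivity of the T cell receptor, and it is expressed in brain and in myeloid cells.

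The mature sequences are printed because both the family and its split into guides and passenger are defined by them (RefSeq, GRCm38.p6, written 5′ to 3′, with the seed in capitals). All 5 entries matched the RefSeq table.
miR-181a-5p: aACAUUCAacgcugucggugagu
miR-181b-5p: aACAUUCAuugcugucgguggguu
miR-181c-5p: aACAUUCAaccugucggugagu
miR-181d-5p: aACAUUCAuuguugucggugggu
miR-181a-1-3p: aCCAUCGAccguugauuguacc
miR-181c-3p: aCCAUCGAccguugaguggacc

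The 4 guides share the seed ACAUUCA, which no other of the 1679 mature mouse miRNAs of the RefSeq table carries. The passenger miR-181a-1-3p has the seed CCAUCGA, shared only with miR-181c-3p in that table. Outside the seed the guides fall into pairs. miR-181a-5p and miR-181c-5p are 1 edit apart, and miR-181b-5p and miR-181d-5p differ at 1 of their shared positions, C12U, counted from the 5′ end of miR-181b-5p, and by 1 base of length. Reads of members this alike could be split between entries by the authors' counting, and the counts of the scarcer members (miR-181c-5p and miR-181d-5p) are uncertain for that reason.

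The Mir181a-1 hairpin is printed to show how its arms lie, with miR-181a-5p and then miR-181a-1-3p in capitals.
Mir181a-1: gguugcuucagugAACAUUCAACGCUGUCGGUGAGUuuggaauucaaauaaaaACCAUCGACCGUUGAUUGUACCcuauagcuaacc

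Mir181a-1 lies on chromosome 1 (GRCm38.p6, chr1:137966455-137966541, plus strand), 97 bases before Mir181b-1. In the GENCODE vM21 annotation this locus is in an intron of the noncoding gene Gm4258 and overlaps an exon of the noncoding gene A430106G13Rik, both on the same strand. A second pair, Mir181a-2 and Mir181b-2, lies 1019 bases apart on chromosome 2 (from chr2:38852735-38852810) in an intron of Nr6a1 on the opposite strand. Mir181d and Mir181c lie 85 bases apart on chromosome 8 (from chr8:84178716-84178787, minus strand) in an intron of Nanos3. The mature miR-181a-5p made by the chromosome 1 and chromosome 2 hairpins is identical, as is miR-181b-5p, so their counts add both loci. The passenger arms differ: miR-181a-1-3p and miR-181a-2-3p are separated by U5C and U16C, counted from the 5′ end of miR-181a-1-3p.

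Values are counts of unique molecular identifiers (UMIs), tags that mark single cDNA molecules, with 240027 to 372998 UMIs on miRNAs and piRNAs in Me-X04+ libraries, 405351 to 682553 in Me-X04- libraries and 424536 to 1192832 in WT libraries. The smallest value above 0 was 10 UMIs, so an entry listed at 0 held between 0 and 9. miRNAs took 7.39% to 13.6% of reads in Me-X04+, against 16.95% to 25.17% in Me-X04- and 17.1% to 27.64% in WT. mRNA reads numbered 17836 to 26188 in the TG libraries, and WT replicates 4 and 5 stood apart from the other 13 libraries with 113460 and 108440. Of the 5 myeloid miRNAs on the marker list, miR-146a-5p and miR-142a-3p were abundant in every group, while miR-155-5p held 22 to 69 UMIs in WT libraries and miR-223-3p held 25 to 87 UMIs in Me-X04+ libraries. The scaled level (CPM, explained with the members' levels) of miR-146a-5p averaged 29191 in Me-X04+ libraries, 110814 in Me-X04- libraries and 113586 in WT libraries. The 4 neuronal miRNAs were present in all 3 groups. miR-124-3p held 0 to 33 UMIs per Me-X04+ library, 23 to 35 per Me-X04- library and 16 to 30 per WT library. miR-9-5p held 119 to 201, 350 to 797 and 298 to 1018 UMIs, and miR-128-3p 115 to 230, 236 to 593 and 221 to 752 UMIs, in Me-X04+, Me-X04- and WT libraries.

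Levels are given as CPM, UMI counts rescaled to 1 library total, after scaling by the trimmed mean of M-values (TMM), a method that sets libraries level on entries taken as unchanged, and each log2 fold change is on that scale unless another is named. An entry was called when edgeR's quasi-likelihood test gave an adjusted p under 0.05 (Benjamini-Hochberg over the 1435 entries tested) with a log2 fold change of at least 0.7 in size. The 5 members covered a wide range of levels. Among the 1379 miRNAs tested, miR-181a-5p ranked 16th by mean level, miR-181a-1-3p 37th, miR-181b-5p 39th, miR-181d-5p 280th and miR-181c-5p 468th. The passenger arm was thus close to miR-181b-5p in level, and the guides from chromosome 8 were far below both.

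**Figure D1:**
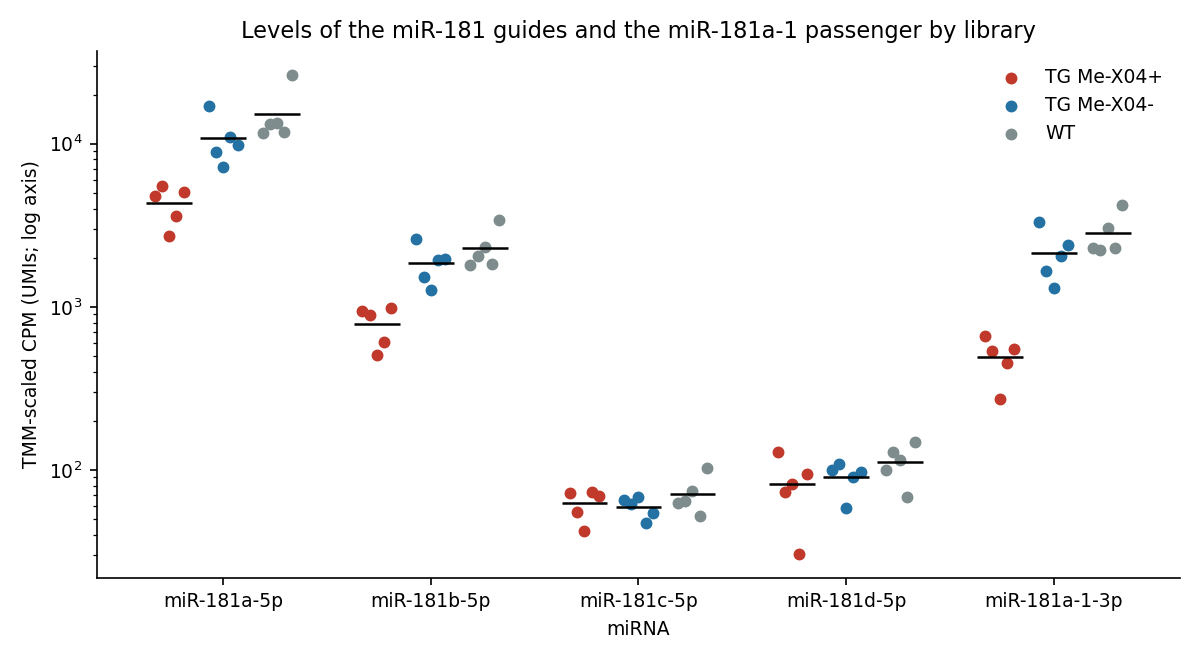
TMM-scaled CPM on a log axis for the 5 miR-181 entries; each point is 1 library (5 per group) and each line the group mean. In miR-181a-5p, miR-181b-5p and miR-181a-1-3p every Me-X04+ library lies below every Me-X04- and WT library on this scale. The 3 groups overlap in miR-181c-5p and miR-181d-5p. With library size alone, miR-181a-5p and miR-181b-5p overlap between Me-X04+ and Me-X04-. The share of all entries without overlap was not counted, so this separation cannot be read as particular to these 3 members. Of 59 entries at a mean log2 level of 10 or more, 78.0% were called lower in Me-X04+ against Me-X04- and 81.4% against WT.

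The first comparison set cells with dye against cells without dye from the same TG mice. The abundant guides and the passenger were lower with dye than without, the passenger most, and the scarce guides showed no detectable difference on the TMM scale. Of the 5 members 3 were called lower and 0 higher, where 8.57% of all entries tested were called lower and 1.39% higher (9.97% either way). All 5 members passed the filter on low values, with 15 UMIs or more in every library.

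The passenger mmu-miR-181a-1-3p stood at 662.9, 533.5, 272.6, 453.9 and 547.2 CPM in Me-X04+ replicates 1 to 5, against 3296, 1662, 1306, 2046 and 2395 in Me-X04- replicates 1 to 5. The groups did not overlap, and the level was lower with dye in 5 of 5 mice. Its log2 fold change was -2.12 (SE 0.29, edgeR adjusted p = 8.6e-05), a 4.34-fold lower level, the 13th lowest of the 1435 entries. The raw counts behind it were 203 to 300 UMIs in Me-X04+ and 629 to 1161 in Me-X04-.

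mmu-miR-181a-5p, the main guide of the family, stood at 4802, 5487, 2733, 3609 and 5042 CPM in Me-X04+, against 17066, 8934, 7178, 11037 and 9822 in Me-X04-. On the TMM scale replicate 3 was the lowest library in both groups and replicate 1 of Me-X04- the highest. The groups did not overlap. The log2 fold change was -1.32 (SE 0.30, edgeR adjusted p = 0.00496), a 2.49-fold lower level. The TMM factors, which multiply library size, were 1.33 to 2.92 in Me-X04+ and 0.577 to 1.19 in Me-X04-. In both groups the largest was that of replicate 3. With library size alone, replicate 3 was the highest Me-X04+ library, at 7813 CPM, and stood at 8528 within the Me-X04- range.

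mmu-miR-181b-5p, which differs from miR-181a-5p by A9U, C10U and A21G (counted from the 5′ end of miR-181a-5p) and by 1 base of length, stood at 938.8, 890.9, 504, 608.6 and 979.5 CPM in Me-X04+, against 2592, 1518, 1265, 1932 and 1970 in Me-X04-. The lowest and highest libraries of Me-X04- were the same as for miR-181a-5p, and the groups did not overlap. Its log2 fold change was -1.24 (SE 0.26, edgeR adjusted p = 0.00252), close to that of miR-181a-5p.

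The guides of the chromosome 8 pair had few counts. mmu-miR-181c-5p stood at 71.98, 55.19, 42.43, 73.28 and 69.31 CPM in Me-X04+, against 65.29, 61.67, 68.52, 47.41 and 54.38 in Me-X04-. The groups overlapped, with a log2 fold change of 0.06 (SE 0.24, edgeR adjusted p = 0.998) on 20 to 38 UMIs per library. mmu-miR-181d-5p stood at 129, 73.59, 82.28, 30.53 and 94.85 CPM in Me-X04+, against 99.36, 107.9, 58.14, 90.08 and 96.39 in Me-X04-, with a log2 fold change of -0.15 (SE 0.29, edgeR adjusted p = 0.997). Me-X04+ replicate 4 was the lowest of all 15 libraries for miR-181d-5p, with 15 UMIs.

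These calls depended on the scaling. With the library size alone, all entries shifted by a median of 1.11 on the log2 scale, and the split of calls over all entries was 16 lower and 484 higher in place of 123 lower and 20 higher. On that scale miR-181a-1-3p was still called lower, at -1.01, while miR-181a-5p (-0.21) and miR-181b-5p (-0.15) were not called, and miR-181c-5p (1.12) and miR-181d-5p (0.98) were called higher. With the total UMIs of all RNA classes as library size the values were -1.18, -0.39, -0.32, 0.95 and 0.78 in the same order. Of these miR-181a-1-3p and miR-181c-5p were called, and miR-181a-5p (edgeR adjusted p = 0.0399) missed the fold threshold alone. The passenger was the only member called lower under every scaling run (TMM, median of ratios, all RNA classes, library size). The order of the members was kept in all 4, but a scaling moves all entries of a library together, so this order could hardly change.

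**Figure D2:**
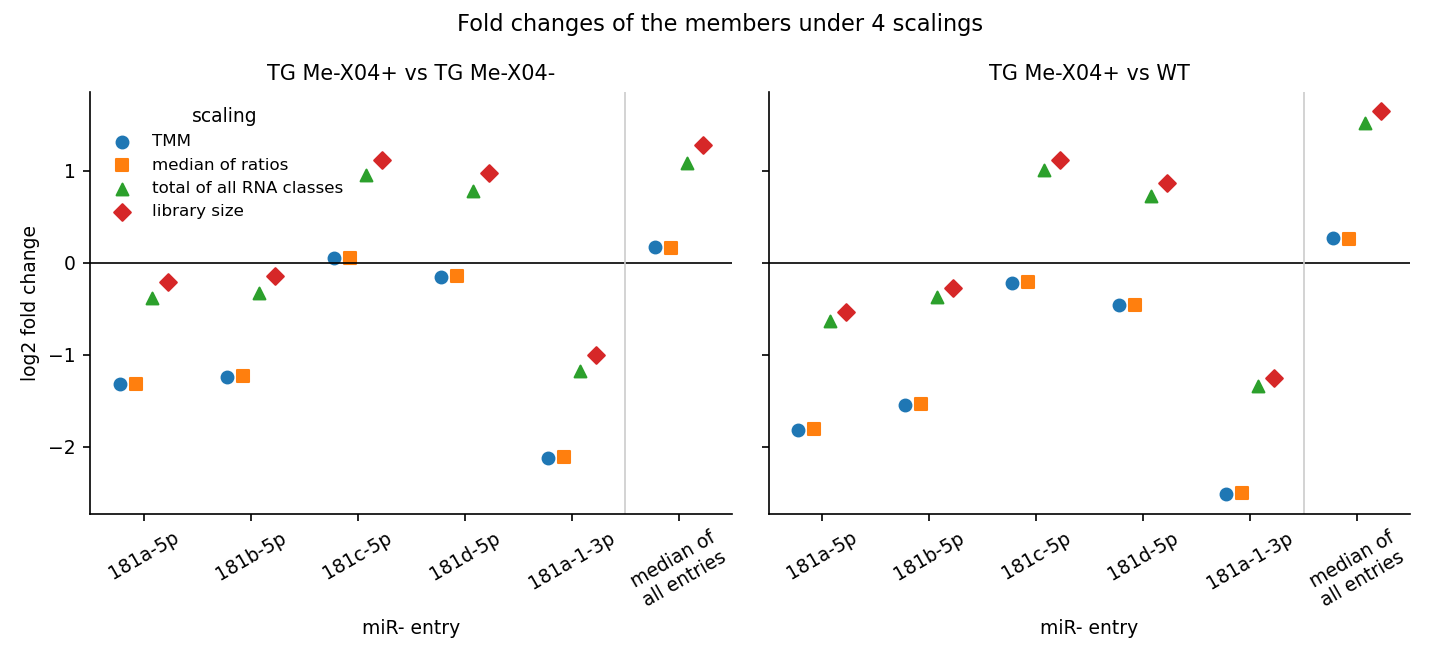
Log2 fold changes of the 5 members, and the median of all entries tested, for Me-X04+ vs Me-X04- (left) and Me-X04+ vs WT (right), each marker being 1 of 4 scalings. Library size and the total of all RNA classes lift all 6 columns together, leaving miR-181a-1-3p below -1 and bringing miR-181c-5p and miR-181d-5p above 0.

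The size of the change also went with the level. Of the 59 entries with a mean log2 level of 10 or more, 46 (78.0%) were called lower with dye than without, with a median log2 fold change of -1.32. miR-181a-5p was at that median (30th from the lowest of the 59), miR-181b-5p was 35th, and miR-181a-1-3p was 3rd. miR-181c-5p and miR-181d-5p were among 329 entries with a mean log2 level of 6 to 7, whose median was 0.13 and of which 5.47% were called lower and 3.34% higher. On these counts the guides lay within the range of entries of their own level.

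**Figure D3:**
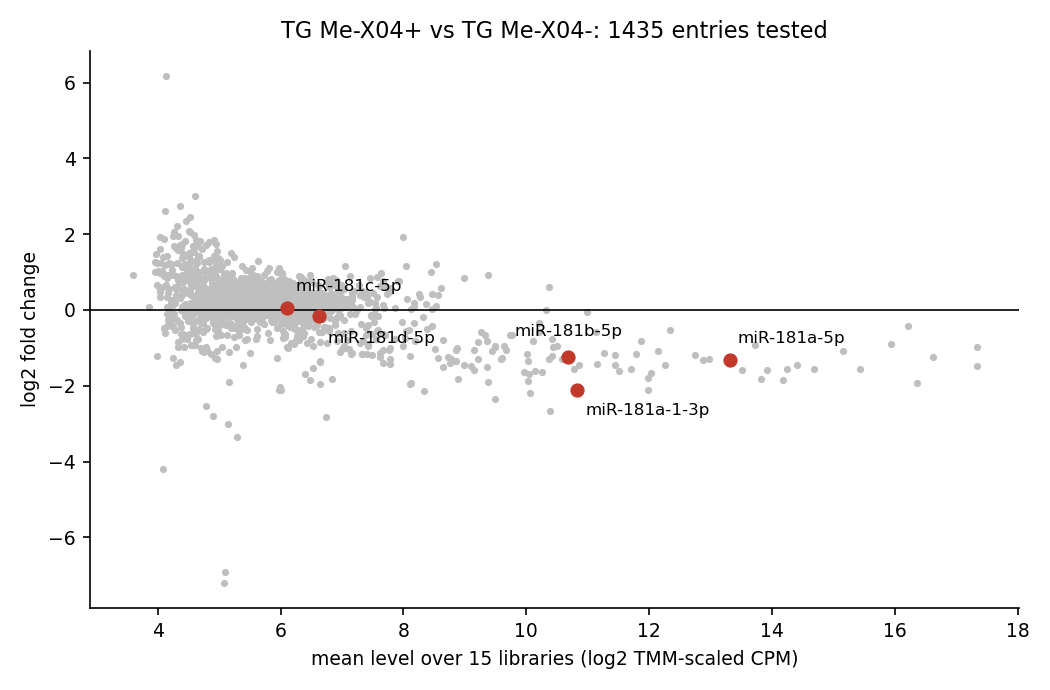
Log2 fold change of Me-X04+ vs Me-X04- against the mean log2 level over 15 libraries for the 1435 entries tested (grey), with the 5 members in red. miR-181a-5p and miR-181b-5p lie in the band of abundant entries around -1.3, miR-181a-1-3p at -2.12 is below it, and miR-181c-5p and miR-181d-5p lie near 0.

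Markers of other cells were read beside these values. The summed level of the 4 neuronal miRNAs was 623.5 to 1014 CPM in Me-X04+, against 1354 to 2853 in Me-X04-, with 2 of 4 called lower and 1 higher (miR-138-5p). The 5 myeloid miRNAs summed to 24161 to 47888 in Me-X04+, against 88918 to 185408 in Me-X04-, with 4 called lower and 1 higher (miR-155-5p). For oligodendrocyte miRNAs, 1 of 2 was called lower, and none of the 11 endothelial and mural, erythroid, lymphocyte and epithelial entries was called. Of the 4 vessel markers, miR-126a-3p was present in every library (14 to 32 UMIs in Me-X04+, 17 to 41 in Me-X04-), and miR-126a-5p (0 to 22 and 11 to 33 UMIs), miR-143-3p (0 to 16 and 0 to 21) and miR-145a-5p (0 to 20 and 0 to 19) were listed at 0 in some libraries. The part of other cell types and of the lower miRNA share of Me-X04+ libraries in these results was not tested, and fewer cells of a type cannot be told apart from less RNA per cell.

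Ratios between members of a library do not move with its scaling, and each was tested between groups by exact permutation of the libraries (two-sided, 5 against 5), with p adjusted over 12 ratio comparisons. The ratio of miR-181a-5p, which adds the guides of both miR-181a hairpins, to miR-181a-1-3p, the passenger of Mir181a-1 alone, was higher in cells with dye, and it is called the guide to passenger ratio here. There were 7.24, 10.3, 10.03, 7.95 and 9.21 miR-181a-5p UMIs for each miR-181a-1-3p UMI in Me-X04+ replicates 1 to 5, against 5.18, 5.38, 5.496, 5.40 and 4.10 in Me-X04-. All 5 Me-X04+ libraries lay above all 5 Me-X04- libraries. The mean was 8.94 ± 1.32 in Me-X04+ and 5.11 ± 0.58 in Me-X04- (SD, n = 5 each), a log2 difference of 0.80 or 1.74-fold (exact permutation p = 0.00794, which is the lowest possible for 5 against 5, adjusted p = 0.0238). The ratio was higher with dye in 5 of 5 mice, by 0.48 to 1.17 on the log2 scale, and with the mouse as a block the exact sign-flip test of 5 pairs gave p = 0.0625, the smallest it allows. As shares, the passenger made up 8.86% to 12.1% of the miR-181a-5p and miR-181a-1-3p UMIs in Me-X04+, against 15.4% to 19.6% in Me-X04-.

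miR-181b-5p kept close to miR-181a-5p. There were 19.6, 16.2, 18.4, 16.9 and 19.4 miR-181b-5p UMIs per 100 miR-181a-5p UMIs in Me-X04+, against 15.2, 17.0, 17.6, 17.5 and 20.1 in Me-X04-. The groups overlapped throughout, and the log2 difference was 0.05 (exact permutation p = 0.532, adjusted p = 0.579), with 2 of 5 mice higher in Me-X04+.

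Of the chromosome 8 guides, miR-181c-5p was higher relative to miR-181a-5p in cells with dye, and the difference of miR-181d-5p missed the threshold. Entries at the level of these guides had a median log2 fold change of 0.13, and those at the level of miR-181a-5p one of -1.32. A scarce entry over an abundant one was thus commonly higher with dye, and no background of such ratios was run. There were 1.499, 1.01, 1.55, 2.03 and 1.38 miR-181c-5p UMIs per 100 miR-181a-5p UMIs in Me-X04+, against 0.383, 0.690, 0.955, 0.430 and 0.554 in Me-X04-. The groups did not overlap, though the lowest Me-X04+ and the highest Me-X04- libraries were close. The log2 difference was 1.35, or 2.56-fold (exact permutation p = 0.00794, adjusted p = 0.0238, 5 of 5 mice higher, sign-flip p = 0.0625). From read counts in place of UMIs it was 1.22 with an adjusted p of 0.0571 (0.0238 to 0.0952 over the alternatives run), on the other side of the threshold.

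For miR-181d-5p the same ratio was 2.69, 1.34, 3.01, 0.846 and 1.88 per 100 in Me-X04+, against 0.582, 1.21, 0.810, 0.816 and 0.981 in Me-X04-. Replicate 4 of Me-X04+ lay inside the range of Me-X04-, and the other 4 above it. The log2 difference of 1.05 did not pass after adjustment (exact permutation p = 0.0317, adjusted p = 0.0544), and without Me-X04+ replicate 4 it was 1.31 and passed. Together the 4 guides took 0.842% to 0.986% of all miRNA UMIs in Me-X04+, against 0.879% to 1.17% in Me-X04-.

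**Figure D4:**
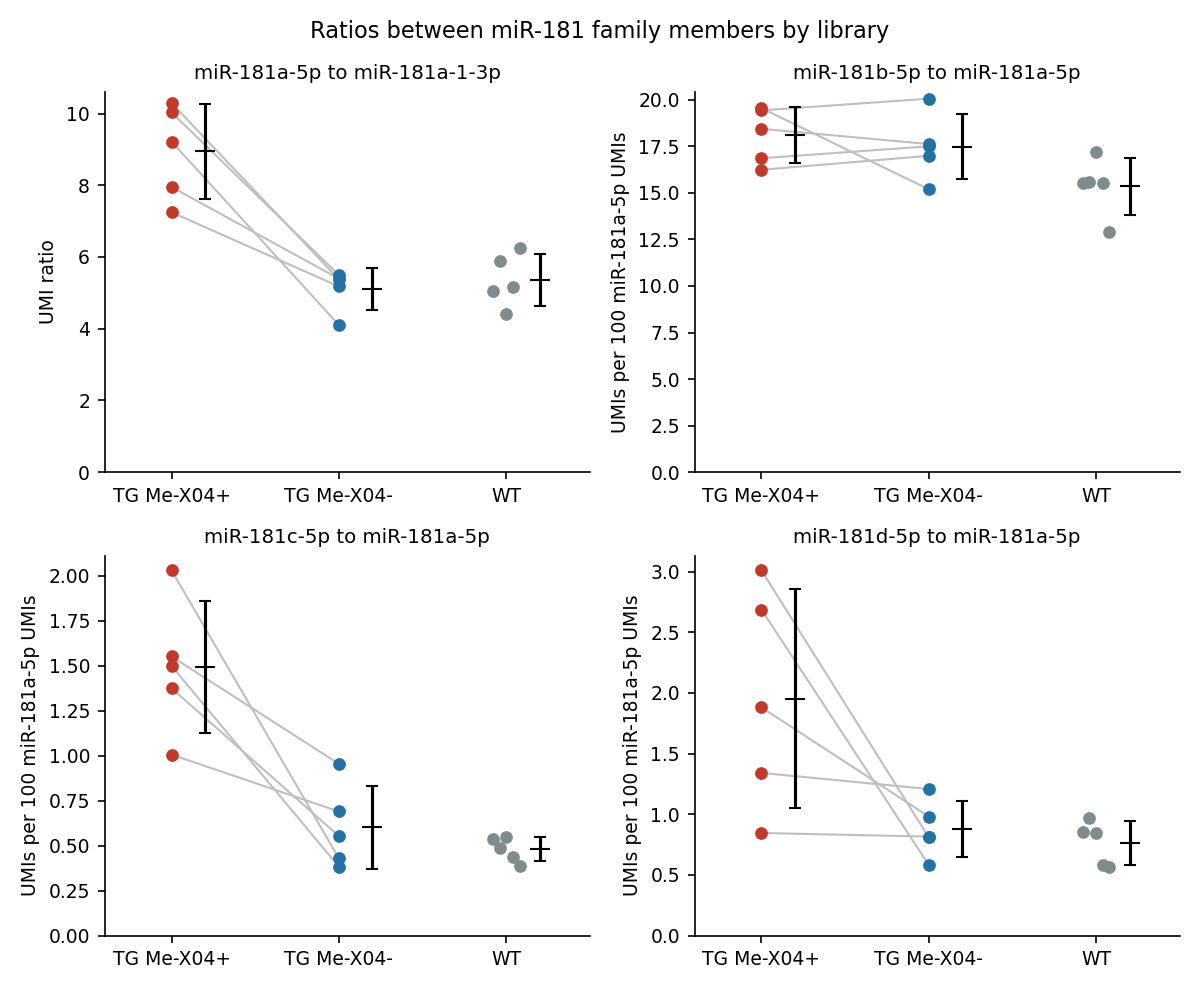
Ratios of UMI counts between members in each library, with miR-181a-5p per miR-181a-1-3p at the top left and the other guides per 100 miR-181a-5p UMIs in the other panels; grey lines join libraries of 1 TG mouse, and black bars are the mean ± SD of 5 libraries. The Me-X04+ points lie above the other groups for miR-181a-5p to miR-181a-1-3p and for miR-181c-5p, overlap them for miR-181b-5p, and overlap them through 1 library for miR-181d-5p.

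The guide to passenger ratio was set among the arm ratios of all miRNAs with both arms at 10 or more UMIs in every library. These were 124 pairs, the miR-181a and miR-181c pairs included, each as the more abundant over the less abundant arm. Some miRNAs counted in 2 pairs, with a less abundant arm from each of 2 hairpins. In 42 pairs the ratio was higher in Me-X04+ than in Me-X04-, in 82 lower, and the median log2 difference was -0.33. Entries with a mean log2 level of 10 or more had a median log2 fold change of -1.32, and those of 6 to 7 one of 0.13. An abundant arm over a scarce one was thus commonly lower with dye. Both miR-181a arms had a mean log2 level above 10, so that pair was not ranked among pairs of like level alone. The groups did not overlap in 4 pairs in the higher direction (3.23%), the miR-181a pair among them, and in 15 in the lower direction (12.1%). The miR-181a difference of 0.80 ranked 10th from the highest of the 124. Among the 14 pairs with a mean of 100 or more UMIs on the less abundant arm, a limit chosen after the values were seen, it ranked 1st, followed by the miR-139 pair at 0.77, and 14.3% were apart in the higher and 21.4% in the lower direction. The 14 ran down to -1.71 for the miR-23a pair, whose groups overlapped.

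**Figure D5:**
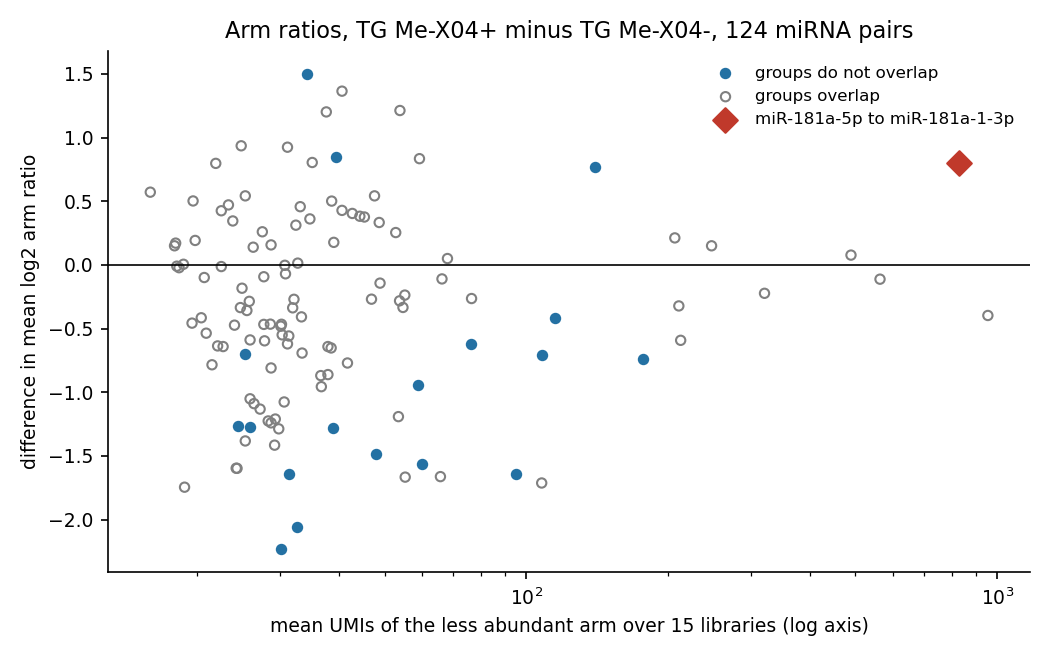
Difference in the mean log2 ratio of the more to the less abundant arm, Me-X04+ minus Me-X04-, against the mean UMIs of the less abundant arm (log axis) for 124 arm pairs. The miR-181a pair (red, 0.80) is the highest of the 14 pairs with 100 or more UMIs on the less abundant arm.

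The second comparison set dye-free TG cells against WT cells. None of the 5 members was called by edgeR or by DESeq2, and none had an unadjusted p under 0.05, where 0.139% of all entries were called either way (0 lower and 2 higher) and 3.76% had such a p. miR-181a-5p averaged 10808 ± 3771 CPM in Me-X04- and 15308 ± 6297 in WT (SD, n = 5 each). WT replicate 5 was at 26476 and the other WT libraries at 11587, 13183, 13477 and 11817, inside the Me-X04- range. The log2 fold changes were -0.50 (SE 0.29) for miR-181a-5p, -0.40 (SE 0.28) for miR-181a-1-3p, -0.30 (SE 0.25) for miR-181b-5p, -0.27 (SE 0.24) for miR-181c-5p and -0.31 (SE 0.29) for miR-181d-5p, each with an edgeR adjusted p of 0.998. Without WT replicates 4 and 5, a choice made after seeing the data, miR-181a-5p was at -0.24.

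The ratios overlapped between these groups as well. The guide to passenger ratio was 5.11 ± 0.58 in Me-X04- and 5.36 ± 0.72 in WT (SD, n = 5 each), a log2 difference of -0.07 (exact permutation p = 0.579, adjusted p = 0.579). For miR-181b-5p, miR-181c-5p and miR-181d-5p to miR-181a-5p the log2 differences were 0.19, 0.26 and 0.20, with adjusted p of 0.155, 0.497 and 0.579 in the exact permutation test.

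The third comparison set cells with dye against WT cells, and it shares the Me-X04+ libraries with the first and the WT libraries with the second. Of the 5 members 3 were called lower and 0 higher, where 11.7% of all entries were called lower and 3.69% higher (15.4% either way). The passenger was again the lowest. miR-181a-1-3p stood at 272.6 to 662.9 CPM in the Me-X04+ libraries given above, against 2289, 2243, 3051, 2292 and 4228 in WT, with no overlap and a log2 fold change of -2.52 (SE 0.29, edgeR adjusted p = 4.7e-06) or a 5.73-fold lower level.

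miR-181a-5p averaged 4335 ± 1133 CPM in Me-X04+ and 15308 ± 6297 in WT, with a log2 fold change of -1.82 (SE 0.30, edgeR adjusted p = 0.000156). miR-181b-5p averaged 784.4 ± 213.8 in Me-X04+ and 2286 ± 668 in WT (SD, n = 5 each), with a log2 fold change of -1.55 (SE 0.26, edgeR adjusted p = 0.000165). Neither guide overlapped between the groups. miR-181c-5p averaged 62.44 ± 13.31 in Me-X04+ and 71.02 ± 19.61 in WT (-0.22, SE 0.23), and miR-181d-5p averaged 82.04 ± 35.68 and 111.7 ± 30.34 in the same groups (-0.46, SE 0.29), and both overlapped. Without WT replicates 4 and 5 the calls stayed, at -2.36, -1.56 and -1.39 for miR-181a-1-3p, miR-181a-5p and miR-181b-5p.

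Scaling moved this comparison as it did the first. With the library size all entries shifted by a median of 1.38 and the split of calls was 28 lower and 644 higher in place of 168 lower and 53 higher. miR-181a-1-3p was then called lower at -1.25, and miR-181c-5p (1.12) and miR-181d-5p (0.87) were called higher. miR-181a-5p (-0.53, edgeR adjusted p = 0.00201) missed the fold threshold alone, and miR-181b-5p (-0.27, edgeR adjusted p = 0.0929) missed both thresholds. Neither of these 2 guides overlapped between the groups with library size. With the total UMIs of all RNA classes, miR-181a-1-3p (-1.34) was called lower and miR-181c-5p (1.01) higher. miR-181a-5p (-0.63, edgeR adjusted p = 0.00101) and miR-181b-5p (-0.38, edgeR adjusted p = 0.0313) missed the fold threshold alone, and miR-181d-5p (0.73) was not called. Of the 59 most abundant entries 48 (81.4%) were called lower on the TMM scale, with a median of -1.67, and miR-181a-1-3p was 4th, miR-181a-5p 22nd and miR-181b-5p 35th from the lowest. Of the 329 entries in the stratum of miR-181c-5p and miR-181d-5p, 10.9% were called lower and 6.99% higher. The neuronal miRNAs summed to 623.5 to 1014 CPM in Me-X04+, against 1609 to 3819 in WT, with 2 of 4 called lower. The myeloid miRNAs summed to 24161 to 47888 CPM in Me-X04+, against 109557 to 176049 in WT, with 4 of 5 called lower and 1 higher. Of the oligodendrocyte miRNAs 1 of 2 was called lower, with sums of 79.71 to 189.2 CPM in Me-X04+ and 266.3 to 378 in WT. Of the endothelial and mural miRNAs 1 of 4 was called lower and 1 higher, with sums of 62.02 to 159 CPM in Me-X04+ and 99.16 to 385.4 in WT. None of the 7 erythroid, lymphocyte and epithelial entries was called, and the part of these markers in the result was not tested.

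The guide to passenger ratio was 7.24 or more in every Me-X04+ library, against 5.06, 5.88, 4.42, 5.16 and 6.26 in WT libraries. The log2 difference of Me-X04+ from WT was 0.74, or 1.67-fold (exact permutation p = 0.00794, adjusted p = 0.0238). As in the first comparison, the 124 arm pairs were not all of like level. The guide to passenger difference ranked 13th from the highest of them, and 3.23% were apart in the higher and 28.2% in the lower direction. Among the 14 pairs with more counts it ranked 2nd, below the miR-139 pair at 0.93, and 14.3% and 28.6% were apart in the same directions. miR-181c-5p to miR-181a-5p was 1.01 or more per 100 in every Me-X04+ library, against 0.538, 0.486, 0.547, 0.438 and 0.390 in WT. The log2 difference was 1.61, or 3.06-fold (exact permutation p = 0.00794, adjusted p = 0.0238). Entries at the levels of miR-181c-5p and miR-181a-5p had median log2 fold changes of 0.20 and -1.67 here, and again no background of such ratios was run. miR-181d-5p to miR-181a-5p differed by 1.25 (exact permutation p = 0.0317, adjusted p = 0.0544) and miR-181b-5p to miR-181a-5p by 0.24 (exact permutation p = 0.0238, adjusted p = 0.0544), and neither passed.

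The other arms of the family's hairpins were scarce. miR-181a-2-3p, the passenger of the chromosome 2 hairpin, was listed at 0 in 2 of 5 Me-X04+, 2 of 5 Me-X04- and 4 of 5 WT libraries and reached at most 45 UMIs. With 9 UMIs put in for each 0, miR-181a-1-3p made up 82.5% to 96.1% of the passenger UMIs of both miR-181a hairpins in Me-X04+, 98.3% to 99.2% in Me-X04- and 98.0% to 99.7% in WT. miR-181c-3p, with the seed of the passenger, held 21 to 55 UMIs in Me-X04+, 30 to 47 in Me-X04- and 21 to 98 in WT. Its log2 fold change was -0.35 (SE 0.29, edgeR adjusted p = 0.771) with dye against without. By mean level miR-181c-3p ranked 343rd of the 1379 miRNAs tested and miR-181c-5p 468th. Over all 15 libraries the strand named guide was thus the less abundant arm of the Mir181c hairpin, though not in every group. The median of miR-181c-5p was 33 UMIs against 27 of miR-181c-3p in Me-X04+. It was 23 against 38 in Me-X04- and 25 against 34 in WT. miR-181b-1-3p was listed at 0 in 12 of 15 libraries and did not pass the filter, and miR-181b-2-3p and miR-181d-3p reached at most 38 UMIs in a library and were not called in any comparison.

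The members were also compared with 639 other miRNAs held at 10 or more UMIs in every library, by Pearson's r of log2 levels over 15 libraries, which share 1 scaling factor a library. miR-181a-1-3p was most like miR-30a-3p (r = 0.993), miR-30a-5p (0.992) and miR-92a-3p (0.988). miR-181a-5p was most like miR-532-5p (0.989), miR-99a-5p (0.984) and miR-140-3p (0.984), and miR-181b-5p was most like miR-103-3p (0.991), miR-191-5p (0.988) and miR-92a-3p (0.986). Between them, miR-181a-5p and miR-181b-5p had an r of 0.988 and miR-181a-5p and miR-181a-1-3p of 0.970. With the group means taken out, these were 0.957 and 0.909. miR-181c-5p and miR-181d-5p, whose hairpins adjoin, had no neighbour above 0.701 (miR-3071-5p) and 0.695 (miR-200c-3p). With each other they had an r of 0.227, or 0.143 with the group means taken out. Their 15 to 98 UMIs per library limit any such r.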

How the data were processed

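Read counts and UMI counts per entry were deposited by the authors, without normalization, for 15 libraries made with the QIAseq miRNA kit. The provider's analysis service trimmed, mapped and assigned the reads, with edgeR 3.24.3 and the GRCm38 build given in the submitters' processing notes. All sample columns matched a labelled sample.

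UMI counts were filtered (filterByExpr), scaled by TMM and fitted in 1 model of all 15 libraries with edgeR 4.0.16 (R 4.3.3, quasi-likelihood F-test). SEs are those implied by the test statistic. The fit was tested on simulated data in which as many entries were set higher as lower. That test does not bear on how TMM handles a shift of entries in 1 direction. DESeq2 1.42.0 was an alternative. Ratios were tested with SciPy 1.17.1. Named entries were the members, the other miR-181 arms, the 3 miRNAs most like each member, and the marker list. The members and lists were chosen with earlier results of these data known.

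By the labels, same-numbered libraries with and without dye came from 1 mouse, and their deviations from group means correlated from -0.17 to 0.25 (different mice, -0.26 to 0.27). The 30 within-group pairs of libraries all differed by more than counting noise (chi-square over its degrees of freedom, 3.79 to 26.78) and were kept apart. The study's methods give other ages than the labels, and labelled ages were used.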

Additional observations from a re-analysis of the deposited data

Results flagged for a closer look

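Among 27 groups of 5 libraries (9 measures in 3 groups), 2 held a library far from the others by Dixon's test, where chance gives about 1 in 20. WT replicate 5 had 26476 TMM-scaled CPM of miR-181a-5p, and the next WT library had 13477. It was also the deepest library and 1 of the 2 with many mRNA reads. Me-X04- replicate 5 had the lowest guide to passenger ratio of its group, 4.10, and the next library had 5.18.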

How the results depend on the processing

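Of the 5 members, 3 were called lower in Me-X04+ against Me-X04- and against WT, and none in Me-X04- against WT, when any 1 library was left out, with DESeq2, median-of-ratios factors, no filter, a filter of 10 UMIs in every library, read counts, miRNA rows alone, only the compared groups, runs of mouse numbers as a covariate, and the replicate block (-2.12, -1.32 and -1.27 for miR-181a-1-3p, miR-181a-5p and miR-181b-5p in Me-X04+ against Me-X04-). The block changed no other call of a member, and WT shares only numbers with TG mice. Library size and the total of all RNA classes changed which members were called: for Me-X04+ against WT, miR-181c-5p was called higher with both (1.12 and 1.01), and miR-181d-5p with library size (0.87) but not with all RNA classes (0.73). For Me-X04+ against Me-X04-, miR-181d-5p was likewise called with library size (0.98) but not with all RNA classes (0.78). miR-181c-5p changed sign for Me-X04- against WT (0.002 and 0.062). It also changed sign for Me-X04+ against Me-X04- with read counts (-0.086), without Me-X04+ replicate 4 (-0.015) and without Me-X04- replicate 4 (-0.013), and miR-181d-5p did so without Me-X04+ replicate 4 (0.059). Over the libraries left out in turn, miR-181c-5p ran from -0.015 to 0.158 and miR-181d-5p from -0.374 to 0.059 in that comparison.

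With group medians in the exact permutation test, the guide to passenger difference was 0.78 against Me-X04- and 0.84 against WT, and that of miR-181c-5p to miR-181a-5p was 1.44 and 1.63. None of these 4 then passed. For Me-X04- against WT, the guide to passenger difference was 0.06 and that of miR-181d-5p to miR-181a-5p was -0.054. With the replicate block the first 2 ratios stood at 0.80 and 1.35 in Me-X04+ against Me-X04- and could not pass. From read counts, miR-181b-5p to miR-181a-5p passed against WT (0.26), and miR-181c-5p to miR-181a-5p did not pass against Me-X04- (1.22).

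With each library left out in turn, the guide to passenger difference ran from 0.73 to 0.88 against Me-X04-, from 0.67 to 0.81 against WT, and from -0.13 to 0.012 for Me-X04- against WT. miR-181b-5p to miR-181a-5p ran from 0.004 to 0.10, from 0.18 to 0.28 and from 0.13 to 0.24 in the same order. miR-181c-5p to miR-181a-5p ran from 1.21 to 1.54, from 1.49 to 1.75 and from 0.07 to 0.40. miR-181d-5p to miR-181a-5p ran from 0.86 to 1.31, from 1.06 to 1.51 and from 0.07 to 0.34. It passed in both Me-X04+ comparisons without Me-X04+ replicate 4 (1.31 and 1.51), and miR-181b-5p to miR-181a-5p passed against WT without WT replicate 3 (0.28). Where no value shows it, the cause was not tested. The counts of miR-181c-5p and miR-181d-5p (15 to 98 UMIs) limit their precision.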
